A study of Danio rerio with 11 samples.

Results

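Mdm2, cyclin G1, the ribosomal protein paralogue Rps27l, Phlda3, the 3 sestrins and Gadd45a belong to a set of genes that vertebrate cells turn on after DNA damage and related stresses, and their transcripts were followed in zebrafish livers that overexpress human UHRF1. The genes were taken by Ensembl zebrafish gene name and gave 9 of the 32105 gene IDs counted. They are mdm2 (ENSDARG00000033443), ccng1 (ENSDARG00000076667), rps27l (ENSDARG00000100513), phlda3 (ENSDARG00000037804), sesn1 (ENSDARG00000020693), sesn2 (ENSDARG00000070012), sesn3 (ENSDARG00000015822) and both IDs of the gadd45a gene, ENSDARG00000043581 and ENSDARG00000104571. The name table calls both of the last IDs GADD45A without the suffix that tells the duplicates apart, so each is given by its ID. The genes were selected on their measured difference between hUHRF1 and WT livers, that is on the L2FC and calls of this same contrast, so their values in that contrast are described and not tested.

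RNA-seq was done on pools of livers dissected at 5 dpf. There were 5 pools from hUHRF1 larvae (clutches 4, 6, 7, 8 and 9) and 6 pools from WT larvae (clutches 4 to 9). The paper and the titles of clutches 4 to 6 call the WT larvae siblings. Pools with the same clutch number were taken to come from the same spawning, and clutch 5 had a WT pool only. The hUHRF1 larvae carry Tg(fabp10a:hUHRF1-EGFP), in which the fabp10a promoter drives human UHRF1 fused to EGFP in hepatocytes, and they were EGFP positive and of the line or level that the labels call high. For clutches 7 to 9 the labels name an incross of the transgenic line, whereas the methods describe a cross of transgenic to WT adults that yields heterozygous embryos. Each hUHRF1 pool held 30 livers, except that of clutch 6 with 27, and each WT pool held 20, so a value is an average over larvae. The WT larvae carry no transgene, and no other allele or treatment is named for either condition.

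Mdm2 is an E3 ubiquitin ligase that puts a brake on the stress response which induces it, and cyclin G1 works with the phosphatase PP2A in the same feedback. Sestrins hold back the growth kinase complex mTORC1 when leucine is scarce or DNA is damaged, partly through the GATOR complexes and AMPK, and they also limit oxidants. Phlda3 has a pleckstrin homology domain that competes with Akt for membrane lipids, Rps27l is a paralogue of the small-subunit ribosomal protein eS27, and Gadd45 proteins bind PCNA and the stress kinase Map3k4 during growth arrest. Most of these roles were worked out in mammalian cells.

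Total counts ranged between 9064943 and 19370497 in hUHRF1 pools and between 15285359 and 23322479 in WT pools. TMM factors, which correct each library for its composition, lay between 1.12 and 1.71 in hUHRF1 pools and between 0.672 and 0.978 in WT pools, and CPM below is the usual scaled count, taken relative to the library total after that correction. Summed CPM of 15 hepatocyte markers was 31300 to 87823 in hUHRF1 pools and 101590 to 184900 in WT pools, with 13 markers called lower. Summed CPM of 16 macrophage marker IDs was 54.4 to 82.9 in hUHRF1 pools and 16.4 to 35.8 in WT pools, with 10 of 12 tested markers called higher. Sums of 12 pancreas markers were 1421 to 12166 CPM in hUHRF1 pools and 721 to 2981 CPM in WT pools, with 10 markers called higher. The sums of intestinal, erythrocyte, neutrophil, endothelial and biliary markers overlapped as well. Of these, 3 of 9 tested intestinal, 3 of 8 endothelial and 1 of 6 biliary markers were called higher. Called lower were 1 intestinal and 1 of 6 erythrocyte markers, and 0 of 4 neutrophil markers were called. Among all tested genes 14.5% were called higher and 14.6% lower. No marker was at 0 over all pools of a condition, except 1 intestinal marker in WT pools. The part of these shifts in the results below was not tested, and in bulk livers fewer cells of a type and less RNA per cell cannot be told apart.

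The mdm2 brake, cyclin G1 and rps27l were 4.80 to 5.84 times as high in hUHRF1 livers as in WT livers. mdm2 had 135, 111, 77.2, 124 and 103 CPM in the hUHRF1 pools of clutches 4, 6, 7, 8 and 9. In the WT pools of clutches 4 to 9 it had 30.2, 17.6, 17.8, 26.4, 32.1 and 13.6 CPM. The conditions were fully separated, and the lowest hUHRF1 pool, that of clutch 7, was still 2.40 times the highest WT pool, that of clutch 8. The means were 110 ± 22.0 CPM (SD, n = 5) in hUHRF1 livers and 23.0 ± 7.60 CPM (SD, n = 6) in WT livers, an L2FC of 2.26 with a standard error of 0.24, or 4.80-fold.

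ccng1 is a cyclin that, unlike the cyclins of the division cycle, is best known as a stress-induced gene. It had 1678, 1391, 1859, 3108 and 3059 CPM in the hUHRF1 pools of clutches 4, 6, 7, 8 and 9. In the WT pools of clutches 4 to 9 it had 345, 314, 314, 497, 673 and 579 CPM. The conditions did not overlap, and in both of them the pools of clutches 7 to 9 were higher than those of clutches 4 to 6. The means were 2219 ± 807 CPM (SD, n = 5) in hUHRF1 livers and 454 ± 153 CPM (SD, n = 6) in WT livers, with an L2FC of 2.29 and a standard error of 0.29.

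rps27l had 363, 206, 386, 456 and 519 CPM in the hUHRF1 pools of clutches 4, 6, 7, 8 and 9. Its lowest, median and highest WT pools had 42.1, 62.1 and 109 CPM. The hUHRF1 pool of clutch 6 was the lowest of its condition and was 1.89 times the highest WT pool. The L2FC was 2.55 with a standard error of 0.28, or 5.84-fold, between means of 386 ± 118 CPM (SD, n = 5) in hUHRF1 livers and 66.1 ± 24.1 CPM (SD, n = 6) in WT livers.

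phlda3, the Akt competitor, had 12 counts or fewer in each WT pool. Its counts were 87, 150, 22, 45 and 94 in the hUHRF1 pools of clutches 4, 6, 7, 8 and 9, against 8, 1, 12, 5, 2 and 2 in the WT pools of clutches 4 to 9. On the CPM scale this was 4.56, 4.55, 1.25, 3.60 and 7.92 in hUHRF1 pools and at most 0.588 in WT pools. No pools overlapped, yet 3 WT pools held 3 counts or fewer, so the L2FC of 3.67 with a standard error of 0.54 depends on how such counts are smoothed. Among the 9 IDs phlda3 had the largest fold and the widest spread, with a coefficient of variation of 54.8% in hUHRF1 pools and 68.0% in WT pools.

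The 3 sestrins were shifted by different amounts. sesn3 had 54.9, 34.3, 52.2, 85.3 and 51.5 CPM in the hUHRF1 pools of clutches 4, 6, 7, 8 and 9, and its WT pools of clutches 4 to 9 had 19.1, 17.5, 10.3, 10.5, 25.7 and 14.5 CPM. The conditions did not overlap, with means of 55.7 ± 18.5 CPM (SD, n = 5) in hUHRF1 livers and 16.3 ± 5.85 CPM (SD, n = 6) in WT livers and an L2FC of 1.77 (standard error 0.27).

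sesn2 had only a few CPM in any liver. Its hUHRF1 pools had 5.40, 7.59, 6.19, 5.44 and 7.33 CPM in clutches 4, 6, 7, 8 and 9, and its lowest, median and highest WT pools had 1.95, 3.12 and 3.88 CPM. The conditions again did not overlap, and the lowest hUHRF1 pool was 1.39 times the highest WT pool. The means were 6.39 ± 1.03 CPM (SD, n = 5) in hUHRF1 livers and 3.04 ± 0.77 CPM (SD, n = 6) in WT livers, with an L2FC of 1.07 and a standard error of 0.23.

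sesn1 had 89.0, 42.7, 96.5, 96.0 and 78.6 CPM in the hUHRF1 pools of clutches 4, 6, 7, 8 and 9. Its WT pools had 52.4, 50.9, 30.3, 52.6, 66.2 and 24.1 CPM in clutches 4 to 9. The hUHRF1 pool of clutch 6 lay inside the WT range, below the WT pools of clutches 4, 5, 7 and 8, although it was above the WT pool of its own clutch. The L2FC was 0.81 with a standard error of 0.27, or 1.75-fold, and sesn1 passed the threshold in only 2 of the 11 fits that left out 1 pool, those without the hUHRF1 pool of clutch 6 or the WT pool of clutch 8. Between 24.4% and 29.0% of the genes tested were called in those 11 fits, which took no account of clutch. With clutch as a block the sesn1 L2FC was 0.87 with a standard error of 0.19. sesn1 was called in that fit, as were 35.1% of all tested genes.

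The gadd45a IDs had unlike patterns. ENSDARG00000043581 had 17.98, 18.7, 24.2, 31.7 and 33.2 CPM in the hUHRF1 pools of clutches 4, 6, 7, 8 and 9, and 18.2, 10.4, 7.07, 16.5, 10.8 and 8.88 CPM in the WT pools of clutches 4 to 9. The WT pool of clutch 4 reached the hUHRF1 range and was slightly above the hUHRF1 pool of its own clutch, while in the other 4 clutches with both conditions the hUHRF1 pool was higher. The L2FC was 1.07 with a standard error of 0.26.

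ENSDARG00000104571 had 22.4, 12.4, 10.2, 26.2 and 12.4 CPM in the hUHRF1 pools of clutches 4, 6, 7, 8 and 9, and 28.2, 10.6, 9.57, 24.4, 28.0 and 9.99 CPM in the WT pools of clutches 4 to 9. Both conditions spanned nearly the same range, with means of 16.7 ± 7.11 CPM (SD, n = 5) in hUHRF1 livers and 18.5 ± 9.30 CPM (SD, n = 6) in WT livers. Its L2FC was -0.14 with a standard error of 0.36 on TMM factors and 0.65 on library size alone, so the sign turned with the scaling. Relative to the median of all tested genes its value was -0.19 on TMM factors and -0.18 on library size alone. This ID was the only member that edgeR did not call.

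**Figure D1:**
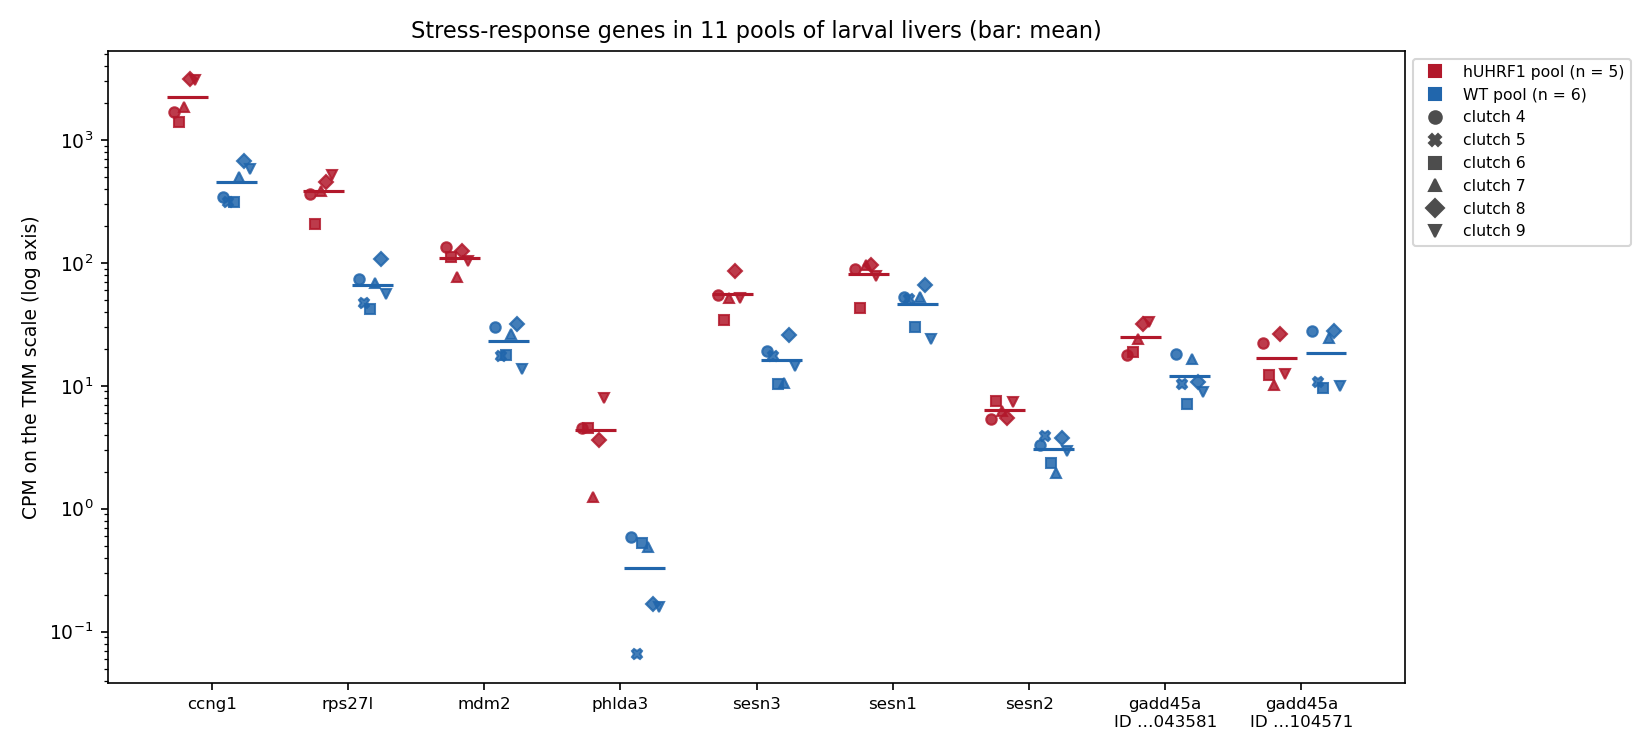
CPM on the TMM scale (log axis) of the 9 gene IDs in each pool, hUHRF1 pools in red left of WT pools in blue, with the clutch given by the symbol and the mean by the bar. For ccng1, rps27l, mdm2, phlda3, sesn3 and sesn2 every hUHRF1 pool sits above every WT pool, and for sesn1 and both gadd45a IDs the conditions overlap.

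Of the 9 IDs, 8 were called at an adjusted p-value under 0.05 in edgeR, all 8 of them higher in hUHRF1 livers, where 29.1% of the 15838 genes tested were called and 14.5% were called higher. The conditions did not overlap for 6 of the 9, against 17.1% of all tested genes (8.05% with every hUHRF1 pool on top). These counts follow from how the genes were selected. They include phlda3, which passed the filter on low counts only through the hUHRF1 pools, where it is high. The median L2FC was 1.77 over the 9 IDs and 0.05 over all tested genes, and 5 of the 9 had an L2FC above 1.5.

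Spread between pools was compared with that of all tested genes. The median coefficient of variation over the 9 IDs was 30.5% in hUHRF1 pools and 35.9% in WT pools, against 30.2% in hUHRF1 pools and 31.1% in WT pools over all tested genes. In WT pools 8 of the 9 IDs had a coefficient of variation above the median of all tested genes, and in hUHRF1 pools 5 of the 9 did. mdm2 varied less among hUHRF1 pools (20.0%) than among WT pools (33.1%), whereas ccng1 varied to a like extent in both, 36.4% in hUHRF1 pools and 33.6% in WT pools.

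Set against the WT pool of its own clutch, ccng1 had the steadiest difference. The log2 differences of ccng1 were 2.28, 2.14, 1.90, 2.21 and 2.40 in clutches 4, 6, 7, 8 and 9, with an SD of 0.19, the smallest among the 9 IDs. For mdm2 they were 2.15, 2.63, 1.54, 1.95 and 2.91, and for phlda3 they were 2.72, 2.85, 1.17, 3.68 and 4.84, with an SD of 1.35. The ccng1 fold over WT thus lay between 3.74 and 5.28 although its CPM differed widely among pools. The median SD was 0.52 over the 9 IDs and 0.49 over all tested genes. ccng1 also had the most counts of the 9 IDs, at least 4688 in each pool, whereas phlda3 had at most 12 in WT pools. The part of counting error in this ranking was not tested.

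For 7 of the 9 IDs the hUHRF1 pool was higher in all 5 clutches, where 20.8% of all tested genes had that pattern. This count too follows from how the genes were selected. Clutch 9 had the largest difference for 6 of the 9 IDs, namely mdm2, ccng1, rps27l, phlda3, sesn1 and gadd45a ENSDARG00000043581. Clutch 7 had the smallest for mdm2, ccng1, phlda3 and gadd45a ENSDARG00000104571, but the largest for sesn3. Over all tested genes the median difference lay between -0.01 and 0.08 in each clutch, and these rankings among clutches were not tested.

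**Figure D2:**
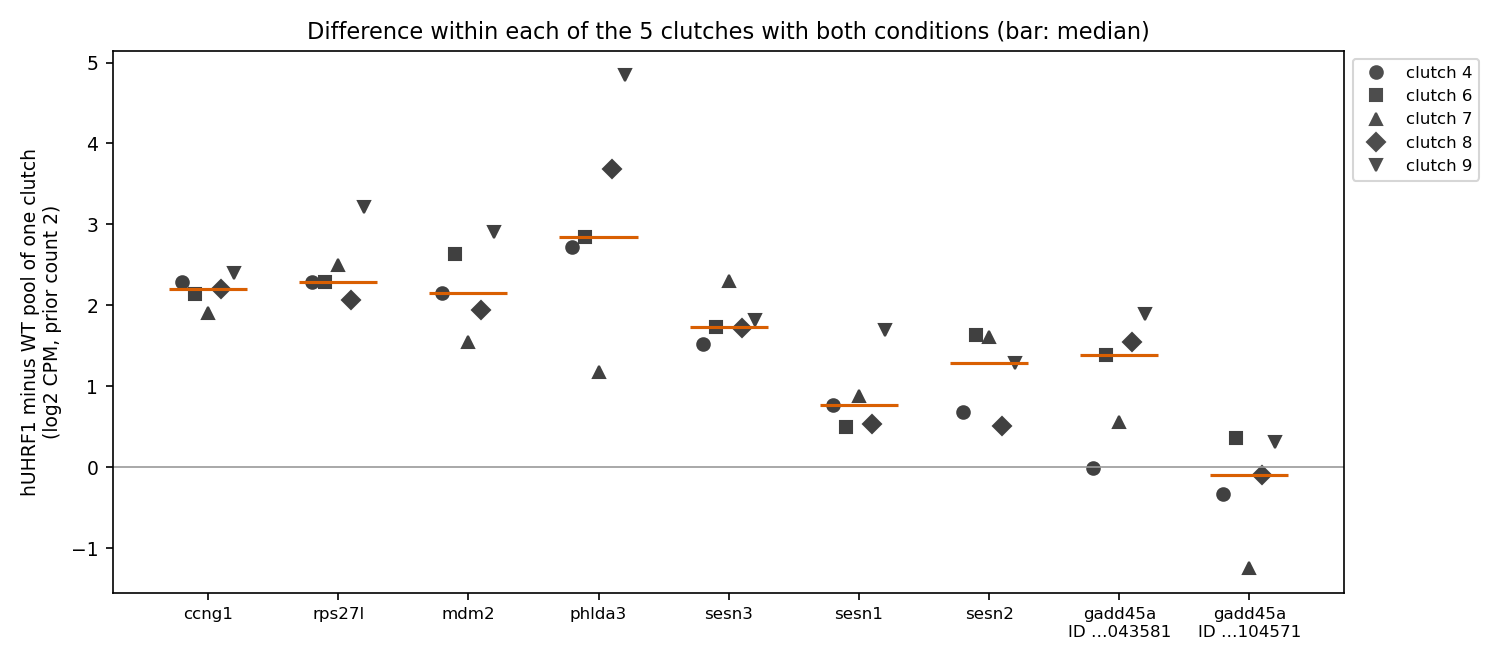
Log2 CPM (prior count 2) of the hUHRF1 pool minus that of the WT pool of one clutch, for the 5 clutches with both conditions, with the median as the bar. The 5 ccng1 values sit between 1.90 and 2.40, those of phlda3 between 1.17 and 4.84, and those of both gadd45a IDs reach below 0.

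The clutches fall into 2 groups whose sample titles are worded differently, clutches 4 to 6 (2 hUHRF1 and 3 WT pools) and clutches 7 to 9 (3 pools of each). For clutches 7 to 9 the labels also name an incross of the transgenic line. The cross may thus differ with the group, and the 2 cannot be told apart here. A difference between these groups played no part in the selection. The 9 IDs were therefore tested for it in edgeR with condition in the same model. ccng1 was higher in clutches 7 to 9 by 0.83 on the log2 scale (standard error 0.17, adjusted p = 0.016, edgeR). It was the only member called, where 8.01% of all tested genes were called. A count of 1 in 9 is near that share, so it is not read as a trait of the members. In hUHRF1 pools ccng1 averaged 2675 CPM in clutches 7 to 9 and 1534 CPM in clutches 4 to 6. Its WT pools averaged 583 CPM in clutches 7 to 9 and 324 CPM in clutches 4 to 6. This fit counts the hUHRF1 and WT pools of a clutch as separate replicates, although clutch group differs only between the 6 clutches and such pools deviate together. With clutch as a random effect in limma, an alternative chosen after seeing the data, the ccng1 difference was 0.81 (standard error 0.18, adjusted p = 0.029, limma) and 4.19% of all tested genes were called, against 8.22% in limma without it. ccng1 was the 1 member called in both limma fits. In edgeR rps27l had a difference in the same direction (0.58, standard error 0.23, adjusted p = 0.13, edgeR), and the adjusted p-values of the other 7 IDs were 0.47 or higher. The ccng1 call was lost without the hUHRF1 pool of clutch 6 (log2 difference 0.79, adjusted p = 0.059, edgeR). In WT pools alone the ccng1 difference was 0.84 (standard error 0.20, adjusted p = 0.28, edgeR), where no gene was called and 1557 genes had an unadjusted p-value under 0.05. phlda3 did not pass the filter on low counts in WT pools alone and was not tested there.

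The size of the hUHRF1 effect itself was then compared between the groups of clutches as an interaction. No member and no gene was called in edgeR, while 604 genes but none of the 9 IDs had an unadjusted p-value under 0.05. The L2FC was 2.06 in clutches 7 to 9 and 2.47 in clutches 4 to 6 for mdm2, 2.18 in clutches 7 to 9 and 2.22 in clutches 4 to 6 for ccng1, and 1.29 in clutches 7 to 9 and 0.62 in clutches 4 to 6 for gadd45a ENSDARG00000043581. The standard errors of the interaction were between 0.36 for ccng1 and 1.14 for phlda3.

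Counts of related genes within one library give a view that no scaling between libraries can alter, although reads were not corrected for transcript length. Each share is that of a gene selected on its L2FC. Its difference between conditions therefore follows in part from that selection and was not tested. rps27l shares its family with rps27.1 (ENSDARG00000023298) and rps27.2 (ENSDARG00000055475), which encode the standard ribosomal protein. rps27l took 38.9 ± 6.89% of the counts of the 3 genes in hUHRF1 pools (SD, n = 5, range 29.4% to 47.0%) and 5.83 ± 1.59% in WT pools (SD, n = 6, range 4.06% to 8.16%). The lowest hUHRF1 pool was thus above the highest WT pool.

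rps27.2 fell by 0.93 on the log2 scale with TMM factors (197 ± 58.7 CPM in hUHRF1 livers, n = 5, and 376 ± 71.8 CPM in WT livers, n = 6; adjusted p = 0.0064, edgeR), and this drop shrank to -0.16 with library size alone (adjusted p = 0.41, edgeR). rps27.1 had 425 ± 184 CPM across hUHRF1 pools (SD, n = 5) and 695 ± 180 CPM across WT pools (SD, n = 6), with an L2FC of -0.71 (adjusted p = 0.086, edgeR). With clutch as a block it was called lower, at -0.76 (adjusted p = 0.0026, edgeR), and with library size alone its L2FC was 0.05 (adjusted p = 0.86, edgeR). Summed over the 3 genes with TMM factors, hUHRF1 livers had 1008 ± 319 CPM (n = 5) and WT livers had 1137 ± 264 CPM (n = 6). At that scaling this difference lay within the spread of pools. The sum was not taken with library size alone, where rps27l, rps27.1 and rps27.2 had L2FCs of 3.31, 0.05 and -0.16.

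mdm2 took 78.4 ± 7.00% of the counts of mdm2 and its paralogue mdm4 (ENSDARG00000057513), a partner that binds Mdm2 and lacks strong ligase activity of its own, in hUHRF1 pools (SD, n = 5) and 37.6 ± 8.89% in WT pools (SD, n = 6). The lowest hUHRF1 pool, that of clutch 7, had 67.3% and the highest WT pool, that of clutch 4, had 52.5%. mdm4 itself had 29.4 ± 7.00 CPM across hUHRF1 pools (n = 5) and 37.4 ± 7.79 CPM across WT pools (n = 6), with an L2FC of -0.35 (adjusted p = 0.20, edgeR). With clutch as a block the mdm4 value was -0.37 (adjusted p = 0.040, edgeR). Library size alone gave 0.43 (adjusted p = 0.053, edgeR), so the sign of mdm4 depended on the scaling. Its value lay below the median of all tested genes both ways, 0.05 with TMM factors and 0.83 with library size alone.

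ccng1 made up 99.1 ± 0.22% of the counts of ccng1 and ccng2 in hUHRF1 pools (SD, n = 5) and 96.4 ± 1.25% in WT pools (SD, n = 6). ccng2 (ENSDARG00000017602), the other cyclin of the G type, had 19.8 ± 4.15 CPM across hUHRF1 pools (n = 5) and 15.6 ± 3.57 CPM across WT pools (n = 6), with an L2FC of 0.35 (adjusted p = 0.21, edgeR). With library size alone the ccng2 value was 1.14 (adjusted p = 3.2e-04, edgeR), against a median of 0.83 over all tested genes at that scaling.

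Among the sestrins sesn3 held a larger part of the counts on average in hUHRF1 livers. It took 38.8 ± 4.53% of their counts in hUHRF1 pools (SD, n = 5) and 25.3 ± 6.03% in WT pools (SD, n = 6), with the highest WT pool at 34.9% above the lowest hUHRF1 pool at 33.7%. sesn1 took 56.2 ± 5.13% in hUHRF1 pools (n = 5) and 69.8 ± 7.24% in WT pools (n = 6), and sesn2 took 4.97 ± 2.41% in hUHRF1 pools (n = 5) and 4.88 ± 1.42% in WT pools (n = 6). Together the 3 genes had 143 ± 37.2 CPM across hUHRF1 pools (n = 5) and 65.4 ± 20.6 CPM across WT pools (n = 6).

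gadd45a ENSDARG00000043581 took 60.5 ± 11.6% of the counts of both gadd45a IDs in hUHRF1 pools (SD, n = 5) and 41.0 ± 7.59% in WT pools (SD, n = 6). The conditions overlapped, since the hUHRF1 pool of clutch 4 had 44.5% and the highest WT pool, that of clutch 5, had 49.4%. The duplicates are close relatives, and whether the counting split shared reads between them was not tested.

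**Figure D3:**
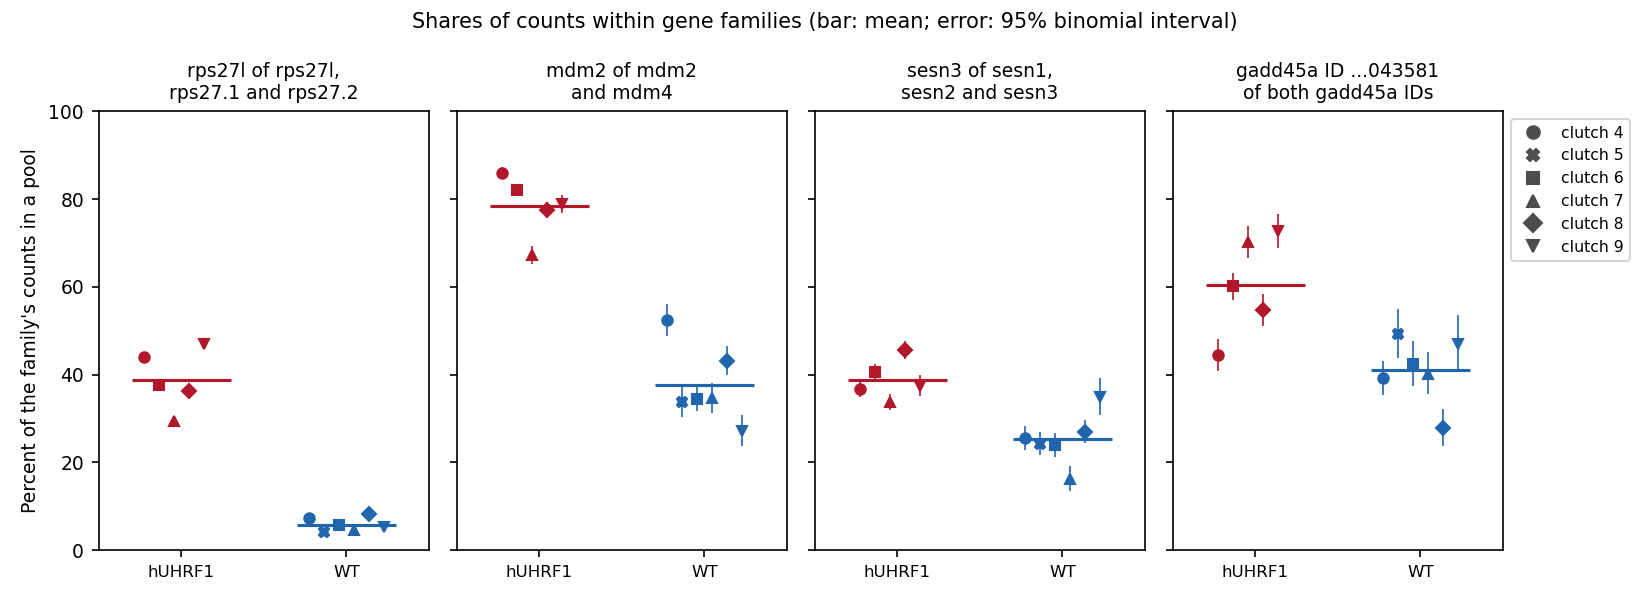
Percent of a family's counts taken by rps27l, mdm2, sesn3 and gadd45a ENSDARG00000043581 in each pool, hUHRF1 in red left of WT in blue, with the clutch given by the symbol, the mean by the bar and the exact 95% binomial interval of each share by the error bar. The rps27l share was 29.4% to 47.0% in hUHRF1 pools and 4.06% to 8.16% in WT pools, and the intervals cover counting error only.

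None of the other relatives tested was called with TMM factors and no block. phlda2 (ENSDARG00000042874), an imprinted growth gene in mammals, had 2.54 ± 1.31 CPM across hUHRF1 pools (n = 5) and 1.24 ± 0.84 CPM across WT pools (n = 6), with an L2FC of 1.03 (adjusted p = 0.16, edgeR), and phlda1 had too few counts to be tested, 21 over hUHRF1 pools and 14 over WT pools. The gadd45b IDs ENSDARG00000013576 and ENSDARG00000027744 had L2FCs of -0.94 and -0.31 (adjusted p = 0.21 and 0.69, edgeR), and their WT pools were widely spread, between 5.79 and 78.3 CPM for the first and between 10.1 and 107 CPM for the second. Without the WT pool of clutch 7 the first was at -0.30 and the second at 0.21, and the second was also above 0 with clutch as a block (0.32) and with library size alone (0.53), so no direction is given for it. gadd45g ENSDARG00000019417 had 139 ± 28.9 CPM across hUHRF1 pools (n = 5) and 90.6 ± 38.5 CPM across WT pools (n = 6), with an L2FC of 0.61 (adjusted p = 0.092, edgeR), and was called with clutch as a block (0.71, adjusted p = 0.020, edgeR) and with library size alone (1.42, adjusted p = 1.4e-04, edgeR). The other gadd45g ID, ENSDARG00000016725, had 15 counts over hUHRF1 pools and 2 over WT pools and was not tested.

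Ratios of counts between 2 members of one library are also free of scaling, and 6 were computed. Both genes of each ratio were selected on this same contrast, so the ratios are described and not tested. The log2 ratio of ccng1 to mdm2 counts was 4.28 ± 0.60 in hUHRF1 pools (SD, n = 5) and 4.31 ± 0.62 in WT pools (SD, n = 6), a difference of -0.02. The hUHRF1 minus WT difference in the log2 ratio was 0.25 for rps27l to mdm2, 0.27 for rps27l to ccng1, -0.52 for sesn3 to mdm2 and 0.96 for sesn3 to sesn1, and the conditions overlapped for each of these 4. That of sesn1 to mdm2 was -0.48 ± 0.61 in hUHRF1 pools (n = 5) and 0.99 ± 0.29 in WT pools (n = 6), a difference of -1.48 with no overlap between conditions. sesn1 was thus lower relative to mdm2 in hUHRF1 livers, although both had a higher mean CPM there.

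The scaling factors of all hUHRF1 pools were above those of all WT pools, so each L2FC was set beside its value with library size alone. That scaling raised the median L2FC of all tested genes to 0.83. mdm2, ccng1, rps27l and phlda3 then had L2FCs of 3.07, 3.05, 3.31 and 4.43, and sesn1, sesn2, sesn3 and gadd45a ENSDARG00000043581 had 1.58, 1.88, 2.52 and 1.86. Relative to the median of all tested genes these were 2.24, 2.22, 2.48, 3.60, 0.74, 1.05, 1.69 and 1.02, against 2.21, 2.24, 2.50, 3.62, 0.76, 1.02, 1.72 and 1.03 with TMM factors. This likeness follows from a scaling that moves all genes by about the same amount and says nothing more about the members. As to calls, 8 of the 9 IDs were called either way, where library size alone called 55.9% of all tested genes. With clutch as a block 8 of the 9 were called as well, against 35.1% of all tested genes. In clutches 4 to 6 alone 5 of the 9 were called, against 10.4% of the genes tested there, and in clutches 7 to 9 alone 6 of the 9 were called, against 16.4%. sesn1 and sesn2 were called in neither group of clutches alone.

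**Figure D4:**
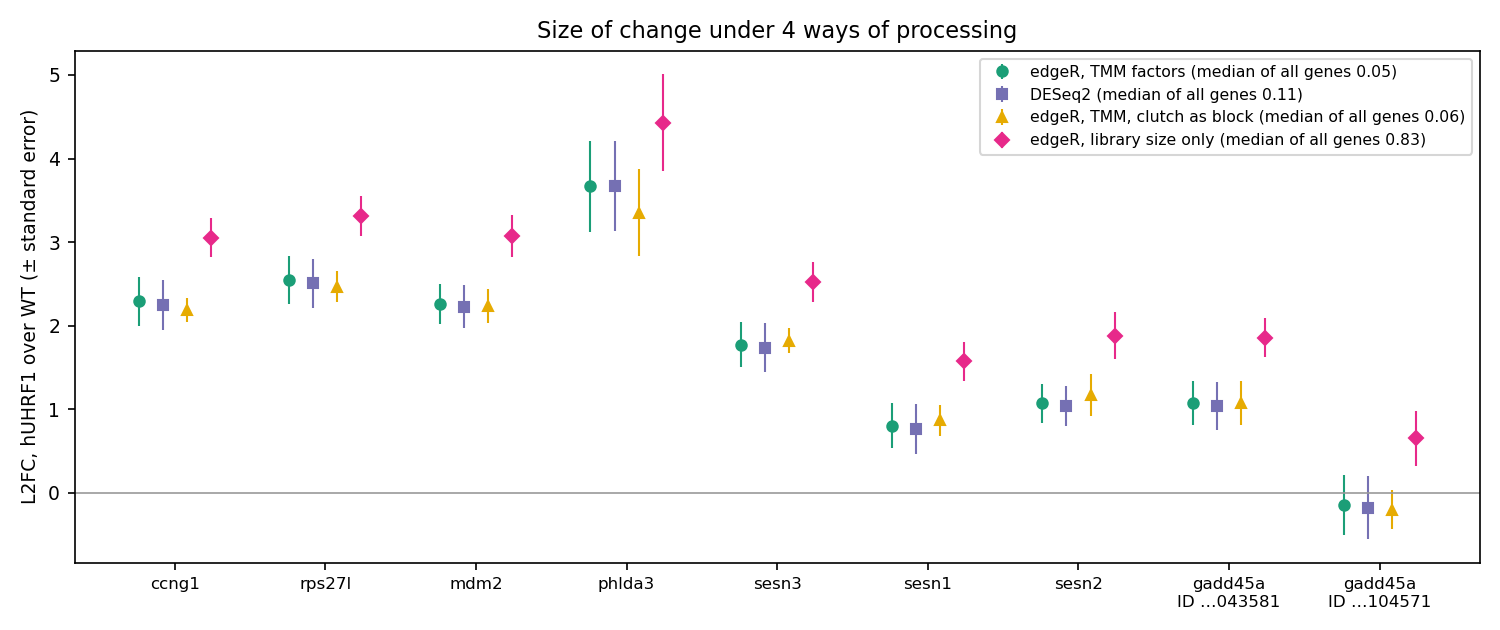
L2FC of hUHRF1 over WT with its standard error for the 9 IDs in edgeR with TMM factors, in DESeq2, in edgeR with clutch as a block and in edgeR with library size alone. Library size alone lifts every gene, as the median of all tested genes is 0.83 there and 0.05 with TMM factors, and gadd45a ENSDARG00000104571 lies below 0 in the other 3 fits.

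Genes whose level followed mdm2, ccng1 or rps27l most closely over the 11 pools were found by the root mean square difference in log2 CPM, each gene taken relative to its WT mean, among 9640 genes. All share the same 11 libraries and the difference between conditions, so closeness says little beyond a like fold. For mdm2 they were ism2a (0.384), arl2 (0.386), sema6d (0.387), atxn1 ENSDARG00000060862 (0.391) and elovl3 (0.393), and arl2, a small GTPase, had an L2FC of 2.34 with a standard error of 0.21. For ccng1 they were the sugar transporter gene slc2a12 (0.272), the vitamin C transporter gene slc23a1 (0.307), lta4h (0.351), rps27l (0.352) and the proteasome subunit gene psma4 (0.355). For rps27l they were the stress-inducible gene nupr1a (0.303), arl2 (0.327), swap70 ENSDARG00000057286 (0.340), ccng1 (0.352) and slc2a12 (0.412). Among the members themselves ccng1 and rps27l were the closest pair.

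The pathways around these genes were examined through lists of other genes, of which 158 were tested. The lists were chosen with earlier results of these data known, so counts of calls in them are described and not tested. In all, 17 were called higher and 23 lower, where 14.5% of all tested genes were called higher and 14.6% lower. The median L2FC of the 158 genes was 0.05, the same as that of all tested genes. With library size alone 94 were called higher and 3 lower, with a median of 0.85, where 52.1% of all tested genes were called higher and 3.85% lower, so the counts of lower calls rest on the scaling.

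Other genes that DNA damage or related stresses induce had a median L2FC of 0.55 over 39 tested genes, with 10 called higher (25.6%) and 2 lower (5.13%), against 14.5% called higher and 14.6% called lower among all tested genes. These shares may follow in part from the choice of the list with earlier results known, and they were not tested. The smallest p-values were those of traf4 ENSDARG00000038964, an adaptor of TNF receptor signalling (L2FC 1.92, standard error 0.19, adjusted p = 2.0e-05, edgeR), baxb, a pro-apoptotic Bcl2 family gene (L2FC 1.77, adjusted p = 6.0e-05, edgeR), and casp8, an initiator caspase (L2FC 1.44, adjusted p = 0.0012, edgeR). The 2 genes called lower, named after their values were seen, were fdxr (L2FC -1.38), a mitochondrial reductase, and ddb2 (L2FC -0.88), a sensor of ultraviolet damage, and no gene of the list was called lower with library size alone. With clutch as a block 20 genes of the list were called instead of 12, and 27 were not called in the unblocked fit. A further traf4 ID, ENSDARG00000003963, named after its value was seen, was at 0.40 (adjusted p = 0.20, edgeR).

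Of 17 tested genes listed as partners or regulators of Mdm2, 2 were called higher (11.8%) and 4 lower (23.5%). Among all tested genes 14.5% were called higher and 14.6% lower. With clutch as a block 7 genes of the list were called. cdkn2a/b was listed because its mammalian relative encodes the Mdm2 inhibitor ARF besides a kinase inhibitor. Gene counts do not show whether the zebrafish gene has an ARF product. cdkn2a/b had 118 counts over the 5 hUHRF1 pools and 4 over the 6 WT pools and was called higher. It passed the filter on low counts only through the hUHRF1 pools, where it is high, so no p-value is given for it. nedd8 ENSDARG00000007989, which encodes a ubiquitin-like modifier, was also higher (L2FC 1.11, adjusted p = 0.0024, edgeR). The ubiquitin-conjugating enzyme gene ube2d3 was lower with TMM factors (L2FC -0.75, adjusted p = 0.0066, edgeR) but at 0.06 with library size alone. The other 3 called lower, named after their values were seen, encode ribosomal proteins, rpl23 (L2FC -0.80) and both rpl5 IDs, ENSDARG00000015862 and ENSDARG00000020197 (L2FC -0.67 and -0.76), and no gene of the list was called lower with library size alone.

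Downstream of the sestrins, of 27 tested GATOR, Rag and mTORC1 genes 3 were called higher (11.1%) and 3 lower (11.1%). Among all tested genes 14.5% were called higher and 14.6% lower. deptor, an inhibitor of mTOR, was lower (L2FC -1.71, adjusted p = 0.0016, edgeR; -0.93 with library size alone), as was the mTORC1 scaffold gene rptor with TMM factors (L2FC -0.67, adjusted p = 0.0018, edgeR), at 0.12 with library size alone. The Rag GTPase gene rragca was higher (L2FC 0.73, adjusted p = 0.0090, edgeR). The remaining called genes were named after their values were seen. They were lamtor2 (L2FC 0.82) and the GATOR1 subunit gene nprl2 (L2FC 0.76) on the higher side and tsc1 ENSDARG00000026048 (L2FC -0.62) on the lower. The other tsc1 ID, ENSDARG00000057918, named in the same way, was at 0.70 and not called (adjusted p = 0.054, edgeR).

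AMPK is the energy-sensing kinase that sestrins also engage. Of 8 tested genes of its list, which includes the upstream kinase gene stk11, 3 were called lower (37.5%) and none higher. Among all tested genes 14.6% were called lower and 14.5% higher. The list is small, and its shares were not tested against these. The median L2FC of the list was -0.54 with TMM factors and 0.28 with library size alone. prkag2 was lower (L2FC -1.29, adjusted p = 0.0012, edgeR), with -0.54 with library size alone. prkab1 ENSDARG00000046143 (L2FC -0.73, adjusted p = 0.039, edgeR) and prkaa2 (L2FC -0.68, adjusted p = 0.047, edgeR) had values of 0.05 and 0.13 with library size alone, and prkaa2 was not called with clutch as a block (adjusted p = 0.10, edgeR). Leaving out 1 pool ended the prkab1 call in 5 of 11 fits and the prkaa2 call in 8 of 11. A further prkab1 ID, ENSDARG00000044183, was at 0.39 (adjusted p = 0.35, edgeR), and prkaa1 was at -0.20 (adjusted p = 0.47, edgeR). Neither was called, and both were named after their values were seen.

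Of 9 tested genes of the PHLDA family and the Akt axis only akt2 ENSDARG00000103612 was called, lower with TMM factors (L2FC -1.34, adjusted p = 3.9e-04, edgeR) and at -0.55 with library size alone, and 2 were called with clutch as a block. The akt2 call was 11.1% of the list, where 14.6% of all tested genes were called lower. For akt2 ENSDARG00000011219, named after its value was seen, the L2FC was -0.11 (adjusted p = 0.76, edgeR). Of 5 tested FoxO genes, transcription factors that Akt keeps out of the nucleus, foxo3a (L2FC -1.45, adjusted p = 0.0013, edgeR) and foxo1 ENSDARG00000099555 (L2FC -1.03, adjusted p = 0.0057, edgeR) were lower, with -0.69 and -0.27 with library size alone and no call there. The 2 FoxO calls were 40% of a list of 5 genes, against 14.6% of all tested genes, and these shares were not tested. edgeR called 3 of these 5 FoxO genes with clutch as a block. A further foxo1 ID, ENSDARG00000061549, named after its value was seen, was at -0.16 (adjusted p = 0.77, edgeR). Of 13 tested genes of cyclin G2 and the PP2A phosphatase 0 were called with TMM factors in edgeR and 0 in DESeq2, and 1 had an unadjusted p-value under 0.05 in edgeR. edgeR called 2 of them with clutch as a block, 10 with library size alone (all higher), and 1 each without the hUHRF1 pool of clutch 7 or the WT pool of clutch 6.

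A list around Gadd45 held family members, named partners, stress kinases, cdk1 and ccnb1. Of its 12 tested genes 2 were called lower (16.7%) and none higher with TMM factors. Among all tested genes 14.6% were called lower and 14.5% higher. gadd45gip1, listed for the Gadd45 interaction in its name and neither a Gadd45 gene nor a kinase, had an L2FC of -0.54 (adjusted p = 0.011, edgeR). mapk8 ENSDARG00000031888, a Jun kinase gene, had -0.59 (adjusted p = 0.035, edgeR). Both turned positive with library size alone, at 0.23 and 0.22, below the median of 0.83 over all tested genes at that scaling. This mapk8 ID was not called with clutch as a block (adjusted p = 0.051, edgeR) or in 7 of 11 fits that left out 1 pool. For mapk8 ENSDARG00000009870, named after its value was seen, the L2FC was 0.09 (adjusted p = 0.80, edgeR).

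Atf4 and Nrf2, transcription factors of amino acid and oxidative stress, can also induce sesn2. Of 12 tested genes of the Atf4 response 2 were called higher (16.7%) and 2 lower (16.7%), against 14.5% and 14.6% of all tested genes. The called genes included psat1, a serine synthesis enzyme gene (L2FC 2.13, adjusted p = 1.9e-04, edgeR), atf3 (L2FC 1.54, adjusted p = 0.0098, edgeR) and chac1, which encodes a glutathione-degrading enzyme (L2FC -1.66, adjusted p = 0.0046, edgeR). The fourth, named after its value was seen, was trib3 (L2FC -1.13), and 5 genes of the list were called with clutch as a block. Of 15 tested genes of the Nrf2 axis none was called higher and 3 lower (20%), where 14.5% of all tested genes were called higher and 14.6% lower. The 3 were nfe2l2b, a duplicate of the factor gene (L2FC -1.81, adjusted p = 0.0016, edgeR), txnrd3 (L2FC -0.75, adjusted p = 0.024, edgeR) and gclc (L2FC -0.86, adjusted p = 0.026, edgeR). The other duplicate, nfe2l2 (ENSDARG00000042824), named after its value was seen, was not called (L2FC -0.12, adjusted p = 0.62, edgeR). It had 183 ± 31.8 CPM across hUHRF1 pools (n = 5) and 199 ± 23.5 CPM across WT pools (n = 6). The txnrd3 value was 0.0036 and the gclc value -0.06 with library size alone, where 7 genes of the list were called higher and 1 lower, and with clutch as a block 6 were called. The txnrd3 call was lost in 4 of 11 fits without 1 pool, and the gclc call without the hUHRF1 pool of clutch 4 or that of clutch 9 (L2FC -0.84 in both). Over the 11 fits the gclc L2FC ran between -0.95 and -0.53, and with clutch as a block it was -0.53. gclc lay between 61.1 and 75.3 CPM in hUHRF1 pools and between 83.8 and 240 CPM in WT pools.

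**Figure D5:**
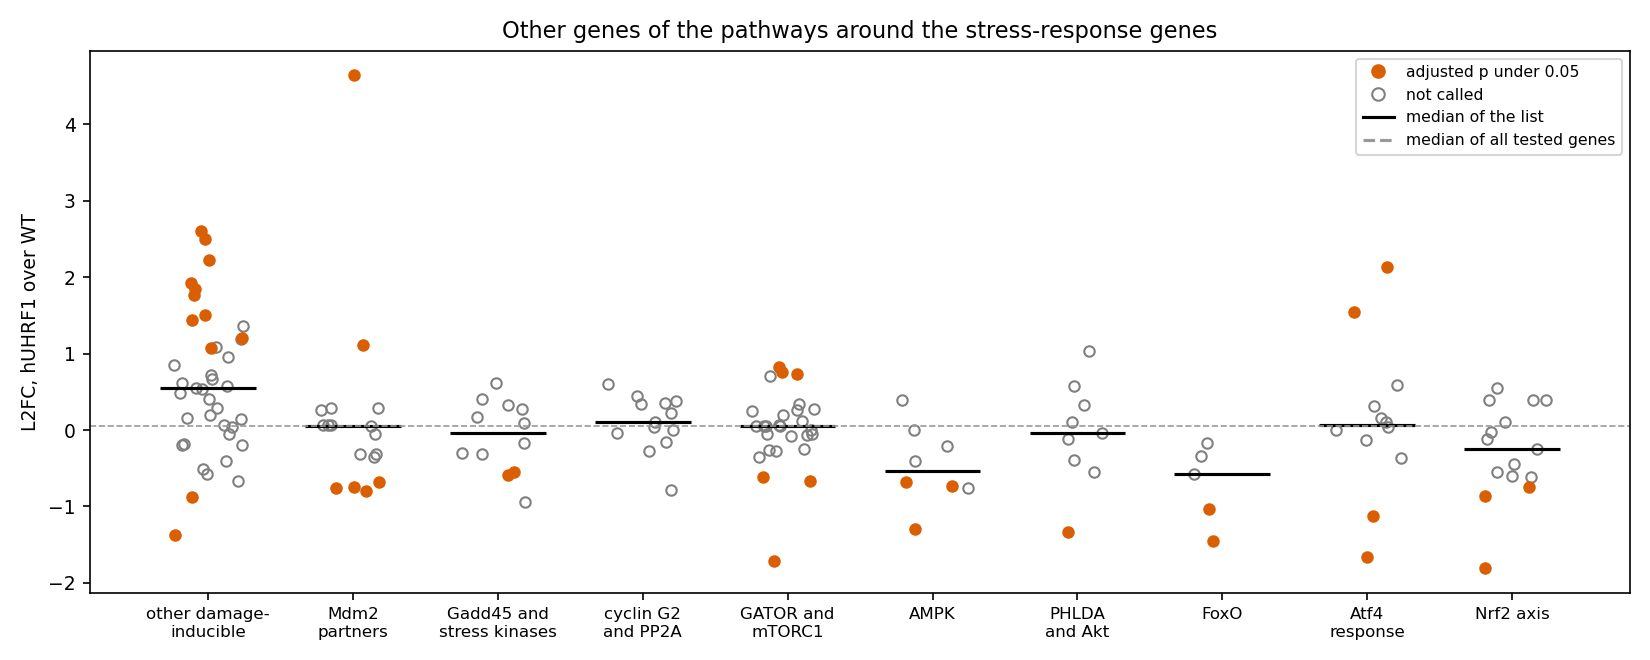
L2FC of hUHRF1 over WT for each tested gene of 10 lists around the stress-response genes, with genes called at an adjusted p-value under 0.05 in edgeR filled, the median of each list as a black bar and the median of all tested genes (0.05) as a dashed line. The list of other damage-inducible genes has 10 genes called higher and 2 lower and a median of 0.55, and the medians of the AMPK and FoxO lists lie at -0.54 and -0.58 with TMM factors but at 0.28 and 0.19 with library size alone.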

How the data were processed

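RNA-seq was measured in 11 pools of livers from 5 dpf larvae, grouped by the condition in their labels. Per the methods and the submitters' processing notes, the authors trimmed the reads, aligned them to GRCz10 with HISAT2 at its defaults and used HTSeq to count them, so that each deposited value is a raw count. Counting by strand is not given in the sources used here. Libraries were sequenced on 2 kinds of Illumina instrument, and which pool ran on which is not given there either. All rows of the files carry an Ensembl gene ID.

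The main tests used edgeR 4.0.16 and limma 3.58.1 under R 4.3.3, with DESeq2 1.42.0 as an alternative. Of 32105 gene IDs, 15838 passed filterByExpr with a minimum count of 10 and a total of at least 15, and TMM factors set the scale. P-values came from the quasi-likelihood test, were adjusted by Benjamini-Hochberg across the 15838 genes, and gave a call below 0.05. The code was tested on simulated data. Log2 CPM used a prior count of 2. Intervals of shares are exact binomial ones at 95% and cover counting error only. Names were known for 26269 IDs, and 7 members matched by name and 2 IDs by the name without a suffix.

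The members and the gene lists were chosen with earlier results of these data known, so no p-value is given for a member between hUHRF1 and WT and none over a list. Genes named are the members, their paralogues, up to 3 called genes with the smallest p-values of each list and the 5 genes most like mdm2, ccng1 and rps27l. Genes outside this rule are marked. Clutch numbers were taken to name a shared spawning, and pools of the same clutch had correlated deviations (0.206 to 0.481 over 15838 genes in 5 clutches). Fits with clutch as a block are therefore given where they change the call of a gene in this rule or a list's count. Deviations were taken from condition means over both groups of clutches, so a difference between these groups enters the correlations. The hUHRF1 pool of clutch 4 correlated more with a WT pool of another clutch than with that of clutch 4. Separate pools were taken as replicates. Alternatives were other size factors, library size alone, other filters, DESeq2, a clutch block, a clutch group term, either group of clutches by itself, removal of the 2 most abundant genes and leaving out each pool. An alternative chosen after seeing the data, limma on log2 CPM with clutch as a random effect, was added for the difference between groups of clutches. Transcript lengths were not used here, so CPM is not compared between genes. One item is not reported here.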

Additional observations from a re-analysis of the deposited data

How the results depend on the processing

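Of the 9 members 8 were called. The number was 5 in clutches 4 to 6 alone (all 5 higher), 6 in clutches 7 to 9 alone, 7 without a filter on low counts (sesn1 not called), 7 with at least 10 counts asked of every library, where phlda3 was not tested, 7 to 8 when 1 pool was left out, and 8 in the other fits. Fits within a group of clutches have fewer pools and called fewer genes, 1784 in clutches 4 to 6 and 2541 in clutches 7 to 9 against 4612, of them 808 and 1193 higher against 2299. Library size alone called 8860 genes, 8251 of them higher. Leaving out 1 pool gave 3881 to 4504 genes, 1932 to 2238 of them higher.

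Of the other pathway genes 40 were called, and 97 with library size alone, 94 higher and 3 lower. With clutch as a replicate block 28 were called higher instead of 17, and leaving out 1 pool gave 33 to 41 calls, 15 to 19 higher and 17 to 22 lower. With library size alone the sign turned for ube2d3 (0.056), gadd45gip1 (0.23), mapk8 ENSDARG00000031888 (0.22), rptor (0.12), prkab1 ENSDARG00000046143 (0.048), prkaa2 (0.13) and txnrd3 (0.0036), none of them then called. The median of all tested genes was 0.83 at that scaling, above each of these values. The number of members called between the groups of clutches was 1, and 0 in WT pools alone, where phlda3 was not tested. It was 0 to 1 when a pool was left out and 1 in limma with or without clutch as a random replicate block. The interaction gave 0 throughout. The replicate block called 5566 genes and 8 members, and it changed no other call of a member.

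sesn1 lost its call in 9 of 11 fits without 1 pool and without a filter on low counts. Median CPM over the members, with no length correction, was 18.5 in WT pools and 14.1 with library size alone. The level set by coding length was not run, since no transcript lengths were used here. Depth limits phlda3 most, with 30 counts over all WT pools.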
